A study of Mus musculus and Homo sapiens with 20 samples.

Results

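The regions described here are 45928 sites of open chromatin inside genes of mouse hepatocytes. They were found by merging the deposited ATAC-seq peaks of 12 hepatocyte libraries wherever peaks overlapped by at least 1 bp. A region was kept when it held a peak in all 12 libraries, when the centre of its strongest peak lay inside the body of a protein-coding gene, and when that centre was more than 1 kb from the start or end of any annotated gene. The 45928 members made up 45.2% of the 101575 regions with a peak in every library. Of the others, 25548 lay within 1 kb of a gene end and 30099 lay outside protein-coding genes. In ATAC-seq the transposase Tn5 cuts and tags accessible DNA, so the tag count of a peak measures how open that stretch of chromatin was.

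The hepatocytes were cultured cells, and every group carried the floxed Ahr gene, which encodes the aryl hydrocarbon receptor, a ligand-activated transcription factor. The 4 groups of 3 libraries crossed control with B2_minus, a deficiency of vitamin B2 (riboflavin, the precursor of the flavin cofactors), and Ad_Cont with Ad_Cre. All carried the label of 4 weeks. Cre is the recombinase that removes DNA between loxP sites. The labels do not give the vector, the position of the loxP sites or whether the replicates were cultured or isolated separately. The p-values therefore speak only of the spread among these libraries, which may be technical. The series held 8 further libraries from a human liver cancer line, not used here.

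Open regions in the interior of a gene are of several kinds. Many are enhancers, stretches bound by transcription factors that act on the host gene's own start or on a gene elsewhere on the chromosome. Others are alternative promoters, where a shorter transcript of the same gene begins, and still others are insulator sites bound by CTCF. In hepatocytes such regions are typically bound by factors of the HNF4, HNF1, FOXA and C/EBP families. An open region inside a gene therefore does not by itself name its target.

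A subset of members can be shown at the level of sequence, because they coincided with an annotated internal transcript start. RefSeq windows (build GRCm38.p6, the assembly of mm10) were matched by coordinates, and 1536 members, or 3.34%, overlapped 1667 windows. The 6 windows below belong to members whose signal passed the test for the B2_minus effect, 3 higher and 3 lower. Each is the 250 bases upstream of an internal start, 5′ to 3′ on the gene's strand. Capitals mark matches to any of 4 motifs searched on both strands: GCGTG (the core that the aryl hydrocarbon receptor binds), TGANTCA (AP-1), CCAAT, and CAAAGTCCA (HNF4), with overlapping matches each counted. Arhgap32 encodes a GTPase-activating protein (chr9:32224025-32224274, plus strand), Lipe hormone-sensitive lipase (chr7:25390113-25390362, minus strand) and Psen2 the presenilin 2 subunit of gamma-secretase (chr1:180245951-180246200, minus strand). Nrxn3 encodes a neurexin (chr12:89812233-89812482, plus strand), Wdr20 a cofactor of deubiquitinating enzymes (chr12:110737750-110737999, plus strand) and Hip1 a protein of clathrin-coated vesicles (chr5:135489230-135489479, minus strand).
Arhgap32: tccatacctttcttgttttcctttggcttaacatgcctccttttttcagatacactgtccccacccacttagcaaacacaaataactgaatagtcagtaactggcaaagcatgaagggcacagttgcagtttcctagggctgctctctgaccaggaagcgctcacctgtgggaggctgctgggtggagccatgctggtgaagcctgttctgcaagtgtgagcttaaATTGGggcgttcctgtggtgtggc
Lipe: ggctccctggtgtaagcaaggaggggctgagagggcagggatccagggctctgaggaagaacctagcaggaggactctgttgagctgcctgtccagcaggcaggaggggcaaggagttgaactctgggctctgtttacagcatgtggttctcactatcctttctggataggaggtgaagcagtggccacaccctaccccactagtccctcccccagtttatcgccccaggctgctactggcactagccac
Psen2: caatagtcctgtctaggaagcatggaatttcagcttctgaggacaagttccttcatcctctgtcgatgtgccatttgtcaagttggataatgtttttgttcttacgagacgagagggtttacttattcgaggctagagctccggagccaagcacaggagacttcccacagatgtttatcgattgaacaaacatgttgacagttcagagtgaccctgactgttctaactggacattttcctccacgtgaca
Nrxn3: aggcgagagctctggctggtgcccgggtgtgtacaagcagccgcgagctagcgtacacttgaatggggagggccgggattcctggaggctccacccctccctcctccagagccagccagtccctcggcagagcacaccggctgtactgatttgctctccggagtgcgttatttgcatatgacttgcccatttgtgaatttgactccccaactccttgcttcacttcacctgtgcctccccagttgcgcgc
Wdr20: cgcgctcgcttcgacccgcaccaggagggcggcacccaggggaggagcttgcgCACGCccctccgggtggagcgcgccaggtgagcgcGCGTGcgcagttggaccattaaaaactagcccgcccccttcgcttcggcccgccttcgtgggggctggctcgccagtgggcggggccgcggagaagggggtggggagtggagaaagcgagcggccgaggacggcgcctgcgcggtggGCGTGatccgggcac
Hip1: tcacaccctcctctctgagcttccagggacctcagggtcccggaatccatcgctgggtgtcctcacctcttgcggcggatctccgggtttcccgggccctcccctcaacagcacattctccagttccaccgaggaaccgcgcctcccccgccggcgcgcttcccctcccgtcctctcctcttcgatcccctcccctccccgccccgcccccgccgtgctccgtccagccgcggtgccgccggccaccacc

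The Wdr20 window held 3 matches to GCGTG or its reverse complement and the Arhgap32 window held 1 match to CCAAT in reverse, while the other 4 windows held none of the 4 motifs. Over all 32851 RefSeq windows, GCGTG was present in 28.2% of the 250-base stretches, against 40.1% of those overlapped by members. Member windows also had a higher median GC content, 59.2% against 52.4%, and a median of 13 CpG dinucleotides against 6. TGANTCA was present in 6.75% of all windows and 6.18% of member windows, CCAAT in 33.9% and 31.7%, and CAAAGTCCA in 0.384% and 0.480%. Among windows at called members, GCGTG was found in 6 of 26 at sites that rose and 16 of 32 at sites that fell. CCAAT was found in 10 of 26 and 4 of 32. These are counts of letters in a window and carry no test. GCGTG itself contains a CpG, and CpG content was not compared between windows at rises and at falls.

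Values below are scaled tags: the highest peak count in the region, divided by the library's size relative to the mean library, with sizes set by the trimmed mean of M-values (TMM) over the 101575 regions. At the internal Lipe start the control Ad_Cont libraries gave 47.5, 46.8 and 45.4 scaled tags and the B2_minus Ad_Cont libraries 66.3, 56.5 and 64.2. With Ad_Cre the control libraries gave 43.0, 46.7 and 52.6 and the B2_minus libraries 64.7, 50.8 and 61.7. Control and B2_minus values overlapped, since 1 B2_minus library lay below the highest control. The B2_minus effect averaged over both arms was a log2 fold change of 0.36 (SE 0.0818, adjusted p = 0.00185, edgeR). The sites at Arhgap32 and Psen2 rose by 0.45 (adjusted p = 0.000207) and 0.37 (adjusted p = 0.0042) on the log2 scale. At the Hip1 start the control libraries gave 40.9, 26.9 and 28.1 with Ad_Cont and 27.6, 24.9 and 28.0 with Ad_Cre, against 18.5 ± 2.34 (SD, n = 3) with Ad_Cont and 20.9, 23.0 and 20.9 with Ad_Cre in B2_minus. Every B2_minus value there lay below every control value, and the averaged effect was -0.54 (SE 0.139, adjusted p = 0.00822). The Nrxn3 and Wdr20 sites fell by 0.70 (adjusted p = 0.00216) and 0.26 (adjusted p = 0.0079). Members at internal starts were more open than other members, with a median of 46.8 scaled tags against 20.3 for the remaining 44392. Among them 25 were called higher and 29 lower in B2_minus, or 3.52%, against 5.74% of the other members.

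As a class, gene-interior regions were weak. Their median level was 20.6 scaled tags, close to the 21.2 of regions outside genes and below the 37.5 of regions at gene ends. Only 11.2% of members exceeded 50 scaled tags, against 36.8% of gene-end regions. The most open member lay in 1600014C10Rik at a mean of 130.3 scaled tags, and Tsga10, Pcmtd1, Mesd, Sel1l3, Kat6b, Zfp574 and Pex2 held the next strongest. Of these 8 only the 1600014C10Rik site was called, at 141 ± 5.75 and 140.3 ± 2.64 scaled tags in control with Ad_Cont and Ad_Cre and 122 ± 6.48 and 118 ± 4.98 in B2_minus (mean ± SD, n = 3), a log2 fold change of -0.23 (adjusted p = 0.000226, edgeR). The position threshold cut through a continuous distribution: 1529 members lay 1000 to 1200 bp from a gene end, with a median of 21.1 scaled tags, and 1767 regions just outside it, at 800 to 1000 bp, had a median of 23.6.

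Members lay in 10485 genes, and 3583 of those genes, or 34.2%, held a single one. At the other extreme 1110 genes with at least 10 members held 43.9% of all. The most were in Zmiz1, with 72, followed by Pde4d with 69, Nav2 with 68, Foxp1 and Gse1 with 67 each, and Rora, Rad51b and Zbtb20 with 62 each. These were long genes: the median length was 130.4 kb for genes with at least 10 members and 36.3 kb for all genes with a member. Zmiz1 encodes a coactivator of the PIAS-like family, Pde4d a cyclic AMP phosphodiesterase, Foxp1 a forkhead repressor and Rora a nuclear receptor of the circadian system.  Of the 36238 members in genes of known strand, 26.8% lay in the first 20% of the gene's length and 14.7% in the last 20%.

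Members were also counted in marker genes of liver cell types. Of 30 hepatocyte marker genes 27 held a member, 124 in all, and 24 of 27 hepatocyte transcription factor genes held 364. The hepatocyte markers without a member were Apoa1, Arg1 and Cyp3a11. Of 16 Kupffer cell and macrophage markers only 5 held a member, and Adgre1, Clec4f, Marco, Timd4, Cd68 and Ptprc held none. Endothelial markers held a member in 14 of 15 genes, 10 of 16 stellate cell and myofibroblast markers did, and so did 12 of 16 cholangiocyte and progenitor markers, with Epcam and Krt19 among those without. An open region inside a gene is no measure of its expression, so these counts describe chromatin only. A member must also lie more than 1 kb from any gene end, which leaves short genes little room. The counts therefore do not check the labelled cell type.

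The 12 lists held 200698 to 281141 peaks and 3897632 to 5557678 listed tags per library. These totals cover listed peaks, and the sequencing depth is unknown. Each list ended at a lowest count, which on the common scale was 6.96 to 7.74 tags in the control libraries and 6.26 to 6.70 in the B2_minus libraries. A member, by its definition, could not be listed below that in any library.

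The share of each library's listed tags that fell in members was on average higher in B2_minus, by a difference that did not pass after adjustment. It was 27.07 ± 1.44% in control and 28.35 ± 0.525% in B2_minus with Ad_Cont, and 25.30 ± 0.258% and 27.93 ± 0.709% with Ad_Cre (mean ± SD, n = 3). This share moved with the length of the list. The 4 longest lists, of 254160 to 281141 peaks and all from control libraries, had shares of 25.2 to 25.6%, and the 3 shortest, of 200698 to 207948 peaks, had 28.5 to 29.0%. With Ad_Cre the control lists held 254160 to 281141 peaks and the B2_minus lists 207948 to 235220, and with Ad_Cont the ranges were 200698 to 265511 and 206940 to 225584. The part of list length in the difference was not tested. The 6 control libraries spanned 25.2 to 28.5% and the 6 B2_minus libraries 27.4 to 29.0%, so the ranges overlapped. The difference averaged over arms was 1.95 percentage points (two-sided exact permutation test within arms, p = 0.015, smallest possible p = 0.005, adjusted p = 0.09 over 6 comparisons of this kind). Within the arms it was 1.28 points with Ad_Cont (p = 0.3, exact) and 2.62 points with Ad_Cre (p = 0.1, exact, the smallest that 3 against 3 allows). The same libraries differed in the same direction in the shares at gene ends, by 1.63 points, and outside genes, by 1.26 points. The share of listed tags in all regions shared by the 12 libraries was thus 4.84 points higher in B2_minus. The ratio of signal in members to signal at gene ends did not differ detectably, at -0.72 to -0.68 on the log2 scale in all libraries (B2_minus difference 0.008, p = 0.31, two-sided exact permutation test, adjusted p = 0.582). Nor did the share of listed peaks, counting every peak inside genes, which differed by -0.241 points (p = 0.48, exact).

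**Figure D1:**
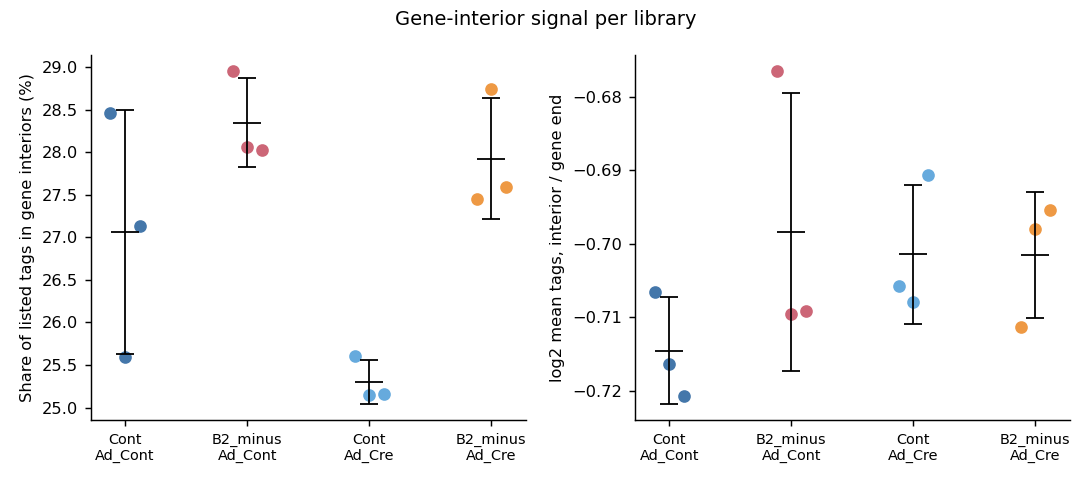
Signal in gene-interior regions, 1 point per library, grouped by control or B2_minus and Ad_Cont or Ad_Cre, with the mean and SD of each group. The share of listed tags in members runs from 25.2 to 29.0%, with the lowest mean in the control Ad_Cre group, and the interior to gene-end ratio stays between -0.72 and -0.68 (log2).

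In the main edgeR fit, far more members were called for B2_minus than for Ad_Cre. With 3 libraries against 3, the counts were 456 and 517 for B2_minus and 3 and 0 for Ad_Cre, and DESeq2 called none in these contrasts. The gap differed with the settings. A fit bounded at Poisson variance gave 8 and 7 against 0 and 0, and summed peaks gave 11 and 9 against 1 and 2. A peak in at least 3 libraries gave 7 and 9 against 2 and 4, and library sizes from listed tags gave 455 and 1943 against 10 and 0. The average over arms draws on all 12 libraries and was not fitted for Ad_Cre. Averaged over the Ad_Cont and Ad_Cre arms, 1163 members rose and 1441 fell at an adjusted p under 0.05 (edgeR quasi-likelihood test, Benjamini-Hochberg over 101575 regions). Together these were 5.67% of members, against a background of 5.78% over all regions tested, and by direction the backgrounds were 2.45% higher and 3.33% lower. The members were therefore called about as often as open chromatin in general, with gene-end regions below them at 3.78% and regions outside genes above them at 7.63%. Called gains had a median log2 fold change of 0.42 and called falls of -0.58, while the median over all members was 0.01, and over all regions 0.00. The number of calls depended on the test: replicates varied less than Poisson counting, and a fit that does not allow this called 442 members, while DESeq2 called 20. The balance of gains and falls differed with the scaling and with the rule for keeping regions. With library sizes taken from all listed tags the median member moved up by 0.10, and 4288 rose and 877 fell (83.0% gains against 44.7%). When a peak in 3 libraries sufficed, 1423 of 125880 regions rose and 361 fell. In that setting a library without a peak was given its lowest listed count, and the TMM scaling was refitted. Whether the added regions, the filled counts or the scaling moved the balance was not tested.

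How often a member was called, and in which direction, went with how open it was. Among members under 12 scaled tags, 0.353% rose and 2.67% fell. Between 15 and 20 tags the shares were 1.59% and 3.44%, and from 30 to 50 tags they were 4.82% and 3.39%. At 50 tags or more, 4.89% rose and 1.35% fell. Weak members were thus called lower more often than higher, and strong members the reverse. Among gene-end regions at 50 tags or more the shares were 1.74% higher and 1.31% lower, and among regions outside genes 6.81% and 2.04%. These differences between classes were not tested. The lowest listed count, which was 6.96 to 7.74 scaled tags in control and 6.26 to 6.70 in B2_minus, lies close to the levels of the weakest members. Its part in their calls was not tested. Nor was that of the rule of a peak in all 12 libraries, which leaves out sites not listed in any 1 of them. The shares by level were computed only under this rule and the main scaling. The balance of gains and falls differed under other choices of each, as given above.

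**Figure D2:**
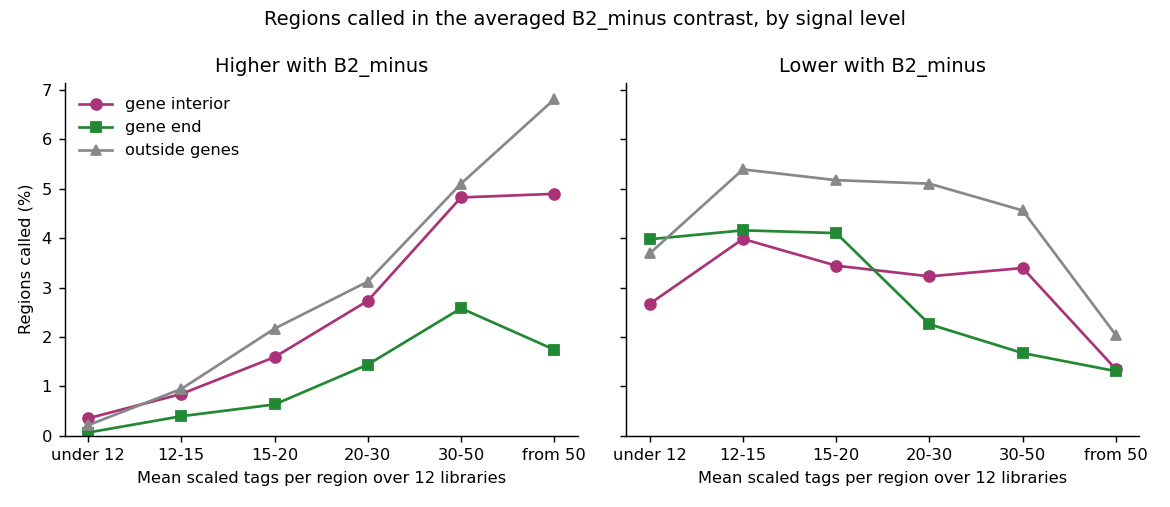
Percent of regions called higher or lower in B2_minus, averaged over arms, against mean scaled tags, for gene-interior, gene-end and outside regions. In gene interiors the share called higher grows from 0.353% below 12 tags to 4.89% at 50 tags or more, and the share called lower is smallest, at 1.35%, in the strongest group.

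Leading gains were in genes of diverse function. In Thsd4, whose product takes part in the assembly of fibrillin microfibrils, a region at chr9:60117841-60118141 gave 30.9, 30.9 and 35.6 scaled tags in control and 65.4, 55.4 and 57.9 under B2_minus with Ad_Cont. With Ad_Cre it gave 50.7, 35.8 and 38.5 in control and 55.3, 57.5 and 58.9 in B2_minus. No B2_minus library overlapped a control library, and the averaged log2 fold change was 0.68 (SE 0.0901, adjusted p = 5.25e-08). It was the only one of 12 Thsd4 members to be called.

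In Dnase2b, which encodes an acid DNase, a region at chr3:146591240-146591498 gave 21.0, 35.8 and 23.8 scaled tags in control and 67.2, 55.4 and 46.3 under B2_minus with Ad_Cont. With Ad_Cre the values were 34.2, 32.8 and 33.3 against 50.1, 42.1 and 38.1. The groups did not overlap in either arm. The log2 fold change was 1.06 with Ad_Cont (adjusted p = 3.18e-06) and 0.37 with Ad_Cre (adjusted p = 0.22), and the interaction test called no member, this one included.

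Lyn, a kinase of the Src family and one of the Kupffer cell and macrophage markers used here, had a region at chr4:3789611-3789962 with 17.7, 16.9 and 18.4 scaled tags in control and 33.1, 30.9 and 30.5 under B2_minus with Ad_Cont. With Ad_Cre it had 15.4, 14.9 and 16.6 against 30.2, 30.6 and 25.4. All 6 B2_minus values lay above all 6 control values, with an averaged log2 fold change of 0.85 (SE 0.143, adjusted p = 1.81e-05). Elk3, an ETS-family partner of serum response factor, rose by 0.87 at chr10:93291402-93291722 (adjusted p = 1.09e-06), from 20.4 ± 5.57 to 38.1 ± 1.9 scaled tags with Ad_Cont and from 20.0 ± 5.42 to 36.2 ± 5.09 with Ad_Cre (mean ± SD, n = 3). Of 10 Elk3 members only this region was called higher, and 3 were called lower. Trim17, a ubiquitin ligase gene, rose by 0.84 at chr11:58959973-58960219 (adjusted p = 1.05e-06).

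Stab2, a scavenger receptor gene known from sinusoidal endothelium, held members that changed in both directions. At chr10:86872164-86872567 the control libraries gave 18.8, 22.9 and 20.5 scaled tags with Ad_Cont and 22.1, 20.9 and 21.9 with Ad_Cre. The B2_minus libraries gave 46.6, 37.3 and 48.4 and 40.7, 48.9 and 41.7, so the groups were far apart in both arms (log2 fold change 1.05, SE 0.117, adjusted p = 5.66e-11). A neighbouring region rose by 0.81, while another, at chr10:86849574-86849906, fell by 0.95 on the log2 scale (adjusted p = 0.000224). The other 10 of 13 Stab2 members were not called.

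Among the falls, the smallest adjusted p was at Aida, whose product binds axin. At chr1:183299095-183299510 the control libraries gave 80.7, 91.6 and 89.6 scaled tags with Ad_Cont and 106, 89.5 and 88.5 with Ad_Cre. The B2_minus libraries gave 55.5, 53.3 and 58.9, and 70.9, 66.1 and 57.1. Every B2_minus library was below every control library, and the averaged log2 fold change was -0.59 (SE 0.0665, adjusted p = 5.66e-11). At a mean of 75.6 scaled tags it was strongly open, and the other 2 Aida members, within 22 kb, were not called (adjusted p = 0.786 and 0.563).

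P2ry14, a receptor for UDP-sugars, lies inside Med12l, and a region within both genes had 51.9, 45.8 and 50.7 scaled tags in control and 26.9, 28.8 and 33.7 under B2_minus with Ad_Cont at chr3:59121013-59121427. With Ad_Cre it had 59.5, 58.7 and 46.4 against 33.4, 34.5 and 29.9. There was no overlap, and the fall was of nearly equal size in the arms, -0.73 and -0.74 (averaged adjusted p = 5.26e-08). Ltbp1, which encodes a binding protein of latent TGF-beta, fell at chr17:75255979-75256325 from 30.6 ± 1.67 to 15.9 ± 2.84 scaled tags with Ad_Cont and from 36.2 ± 5.62 to 19.7 ± 0.554 with Ad_Cre (n = 3), a log2 fold change of -0.91 (adjusted p = 1.5e-06).

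The anion transporter gene Slc26a9 fell by 0.93 at chr1:131752121-131752415 (adjusted p = 1.46e-06) and the semaphorin gene Sema4d by 0.84 at chr13:51763101-51763414 (adjusted p = 7.18e-07). Other falls of this size were in Itga9, an integrin subunit, by 0.85, in Klhl29 by 0.92, in Maea, a subunit of a ubiquitin ligase, by 0.83, and in Msi2, an RNA-binding protein, by 0.84. Arhgap22, a GTPase-activating protein for Rac, fell by 0.80 (adjusted p = 4.16e-07). Txnrd2 is a flavoprotein, the mitochondrial thioredoxin reductase. Its region at chr16:18471356-18471671 gave 24.3, 12.9 and 31.3 scaled tags in control and 13.4, 8.53 and 16.8 under B2_minus with Ad_Cont, and 33.1, 36.8 and 24.5 against 9.39, 15.3 and 13.6 with Ad_Cre. The groups overlapped with Ad_Cont and not with Ad_Cre, and the averaged log2 fold change was -1.03 (adjusted p = 1.19e-05).

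**Figure D3:**
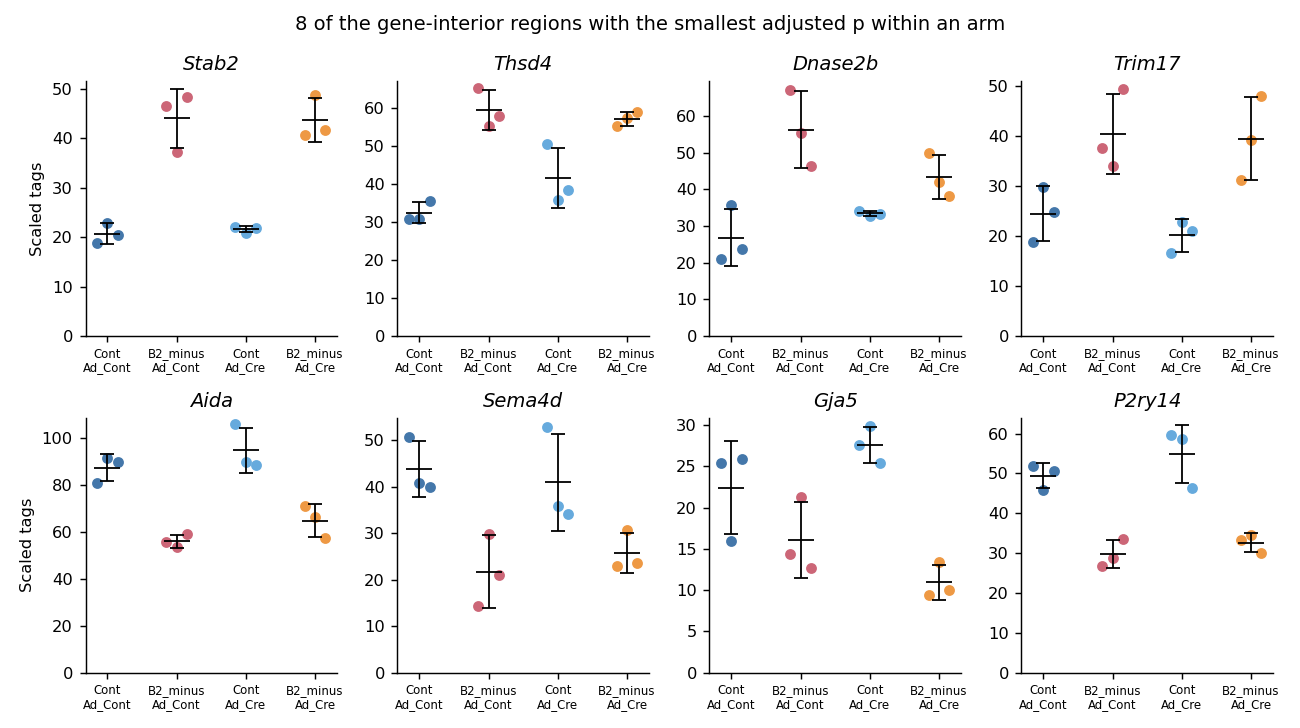
Scaled tags of leading gene-interior regions, 1 point per library in each of the 4 groups, with the mean and SD of each group. In the panels of sites that rose, such as Stab2 and Thsd4, the B2_minus points sit above the control points in both arms, and at Aida and P2ry14 they sit below.

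Taken arm by arm, fewer members were called. With Ad_Cont 195 rose and 261 fell, or 0.993% of members against a background of 1.04% (0.423% higher and 0.618% lower). With Ad_Cre 178 rose and 339 fell, or 1.13% against a background of 1.13% (0.354% higher and 0.774% lower). These counts too depended on the settings: library sizes from all listed tags gave 313 higher and 142 lower with Ad_Cont and 1739 and 204 with Ad_Cre, turning the balance. The fit bounded at Poisson variance called 8 and 7 members, DESeq2 called 0 in either arm, and the Ad_Cont count fell to 116 without replicate 1 of B2_minus Ad_Cont and the Ad_Cre count to 147 without replicate 3 of B2_minus Ad_Cre. No library is shared between these arms, and 92 members were called in both, 25 higher and 67 lower, with none in opposite directions. They were 20.2% of the members called with Ad_Cont and 17.8% of those called with Ad_Cre. The same overlap was not counted for gene-end regions or regions outside genes. Whether it is particular to gene interiors was therefore not tested. Over all 45928 members the log2 fold changes of the arms had a Pearson r of 0.385, across regions, which are not independent replicates. Gene-end regions had an r of 0.356.

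Called members fell in 1893 genes, of which 799 held only gains, 938 only falls and 156 both. Several genes held many called members. Genes with at least 5 members, at least 50% of them called, were picked after their values were seen, and 13 of the 2819 genes with that many members qualified. All 5 members of Pdgfb, a growth factor for mesenchymal cells and pericytes, fell, between 80011718 and 80015163 of chromosome 15 and by 0.59 to 0.97 on the log2 scale. At the Pdgfb region chr15:80014493-80015163 the control libraries gave 22.1, 20.9 and 24.8 scaled tags with Ad_Cont and 24.3, 24.9 and 23.7 with Ad_Cre, against 9.86, 11.7 and 11.6 and 13.6, 15.3 and 9.97 in B2_minus. The values did not overlap (log2 fold change -0.97, SE 0.167, adjusted p = 2.82e-05).

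In Itgb6, the beta subunit of an integrin that activates latent TGF-beta, 5 of 11 members fell and all 11 had a negative log2 fold change, 3 of them within the 0.10 by which library sizes from all listed tags shift the median. The strongest fall was at chr2:60627467-60627803. There the control libraries gave 25.4, 32.9 and 25.9 scaled tags with Ad_Cont and 38.6, 26.9 and 34.2 with Ad_Cre. The B2_minus libraries gave 14.3, 13.9 and 14.7, and 15.7, 16.3 and 14.5, far below (log2 fold change -1.03, SE 0.149, adjusted p = 5.71e-07). In Htra1, a secreted serine protease gene, 3 of 6 members fell by 0.64 to 0.78, and the same 3 were called within each arm. Glis3, a zinc-finger factor gene, had 6 of 12 members called lower.

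By number of falls, Sfi1 led with 16 of 26 members, then Nav2 with 8 of 68, Lpp with 7 of 55, and Shank2 with 6 of 28, beside 1 gain. Nav2 encodes a neuron navigator, Lpp a focal adhesion protein and Shank2 a synaptic scaffold. The Sfi1 falls ranged from 0.17 to 0.62 on the log2 scale, and 15 of the 16 lay between 3184583 and 3200052 of chromosome 11. Sfi1, a centrosomal protein gene, belongs to a locus with near-identical copies in the mouse genome, so tags there may have been divided between copies and its count is uncertain. Genes with the most gains were Prkce, a protein kinase C, with 5 of 45 (log2 fold changes 0.30 to 0.55), and Robo1, a Slit receptor, with 5 of 22 (0.26 to 0.54). At the Prkce region chr17:86470229-86470514 the control libraries gave 27.6, 31.9 and 38.9 scaled tags with Ad_Cont and 29.8, 31.8 and 30.7 with Ad_Cre. The B2_minus libraries gave 43.0, 42.6 and 36.8, and 35.5, 44.1 and 46.2, so the groups overlapped with Ad_Cont and not with Ad_Cre (log2 fold change 0.39, SE 0.106, adjusted p = 0.0141).

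**Figure D4:**
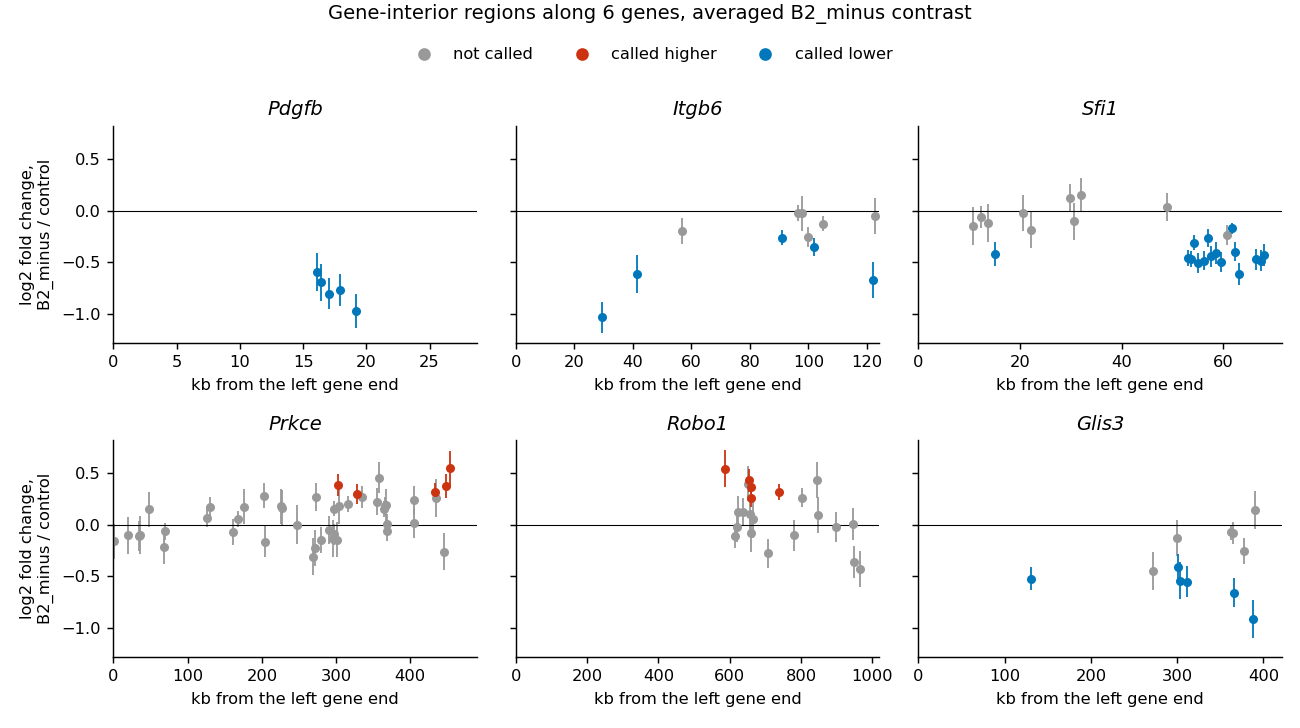
Averaged B2_minus log2 fold change of every member along 6 genes, against distance in kb from the left end of the gene, with bars of 1 SE and called members coloured. The Pdgfb and Itgb6 members all lie below 0, the called Sfi1 members crowd at the right end, and the called members of Prkce and Robo1 lie above 0 among uncalled neighbours.

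Neighbouring called members tended to share a direction. Among 226 pairs of adjacent members of a gene in which both were called, 202 had the same sign, 61 higher and 141 lower. Of pairs under 2 kb apart, 91 of 93 had the same sign. Without Sfi1 the counts were 189 of 213 and 79 of 81. Over all 35443 adjacent pairs, called or not, the log2 fold changes had a Pearson r of only 0.162. It was 0.238 for pairs under 2 kb apart and 0.0866 for pairs at least 20 kb apart. Adjacent regions of the other classes were not compared. Close neighbours may share tags of 1 broad open region. Along genes, both shares of called members were larger toward the end: 1.95% rose and 2.71% fell in the first 20% of the gene, against 3.03% and 3.71% in the last 20%.

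Among gene lists related to riboflavin and the liver, counts per list were small, and are to be read against the 5.78% of all regions called, 2.45% higher and 3.33% lower. The 56 flavin-dependent enzyme genes held 268 members in 47 genes, of which 11 rose and 4 fell. Their called share was near the background (median log2 fold change 0.04, against 0.00 over all regions), and library sizes from all listed tags gave 30 and 3. The gains included Mical3, a flavin monooxygenase of actin (3 members), Fmo5 (2), Aox1, Aox3, Sdha, Dmgdh and Chdh. The falls were in Por, the flavoprotein that passes electrons to cytochromes P450 (2), Mical3 and Txnrd2. Genes of bile acid and xenobiotic metabolism held 112 members, of which 11 rose and 2 fell, or 11.6% (median 0.05). Only 1 and 2 were called with summed peaks, and 1 and 0 with the fit bounded at Poisson variance. The gains were at Cyp7a1, Cyp7b1, Cyp27a1, Abcb4, Ephx1 and Cyp1a1, among others. At Cyp7a1, the rate-limiting enzyme of bile acid synthesis, chr4:6270558-6270861 gave 26.5, 14.9 and 11.9 scaled tags in control and 27.8, 35.2 and 37.9 under B2_minus with Ad_Cont, and 18.8, 28.8 and 18.4 against 26.1, 29.7 and 28.1 with Ad_Cre. The groups overlapped with Ad_Cre, and the averaged log2 fold change was 0.63 (SE 0.143, adjusted p = 0.00194).

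In Nr1h4, the bile acid receptor FXR, 1 member rose and 1 fell. The fall was at chr10:89531288-89531661, from 47.9 ± 5.09 to 34.1 ± 2.96 scaled tags with Ad_Cont and from 39.8 ± 4.59 to 30.4 ± 2.7 with Ad_Cre (mean ± SD, n = 3, adjusted p = 0.00281). The 34 nuclear receptor and cofactor genes held 488 members, 15 higher and 9 lower. Hepatocyte transcription factor genes held 364, 6 higher and 7 lower, and the 124 members in hepatocyte marker genes gave 4 higher and 0 lower.

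In lipid synthesis genes 3 of 251 members rose and none fell. They lay in Acacb, an acetyl-CoA carboxylase (log2 fold change 0.55, adjusted p = 0.0129), in Me1, the malic enzyme (0.70, adjusted p = 0.00572), and in Lpin2. Of 121 members in fatty acid oxidation genes 2 rose and 1 fell. A member in Hadh, an enzyme of beta-oxidation, rose by 0.70 (adjusted p = 0.00302), and one in Ppargc1a, a coactivator of mitochondrial genes, fell by 0.76 (adjusted p = 0.00286). Of 223 members in genes of glucose metabolism and insulin signalling 9 rose and 3 fell. The gains included 2 in Pfkfb3, 2 in Pcx, which encodes pyruvate carboxylase, and 1 each in Irs1, Akt2 and Pik3r1, while Insr had 1 in either direction. Inflammation and acute phase genes held 75 members, 2 higher and 1 lower, and circadian clock genes 166, 5 higher and 3 lower.

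Actin and adhesion genes, with 718 members, had 23 higher, 3 of them in Cald1, and 22 lower, 7 of them in Lpp and 4 in Dlc1. Hippo-YAP and TGF-beta genes had 3 higher and 14 lower of 241 members, or 7.05% against 5.78% of all regions (median -0.03), with falls in Smad3 (3), Acvr1 (2), Smad6 (2), Bmpr2, Tgfbr1, Ski, Amotl1, Tead1, Ccn2 and Smad2, and gains in Wwtr1, Tgfb1 and Yap1. Smad3 transmits the TGF-beta signal to the nucleus, and 34 of its 37 members were not called. Long neuronal genes, included as genes not known for hepatocyte functions, had 7 higher and 23 lower of 296, or 10.1% against 5.78%. The excess of falls turned into an excess of gains with library sizes from all listed tags, which gave 18 higher and 8 lower for Hippo-YAP and TGF-beta genes and 28 and 14 for long neuronal genes. The same scaling gave 67 and 12 for actin and adhesion genes, 27 and 3 for hepatocyte transcription factor genes, 5 and 4 for endothelial markers and 3 and 1 for cholangiocyte markers.

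**Figure D5:**
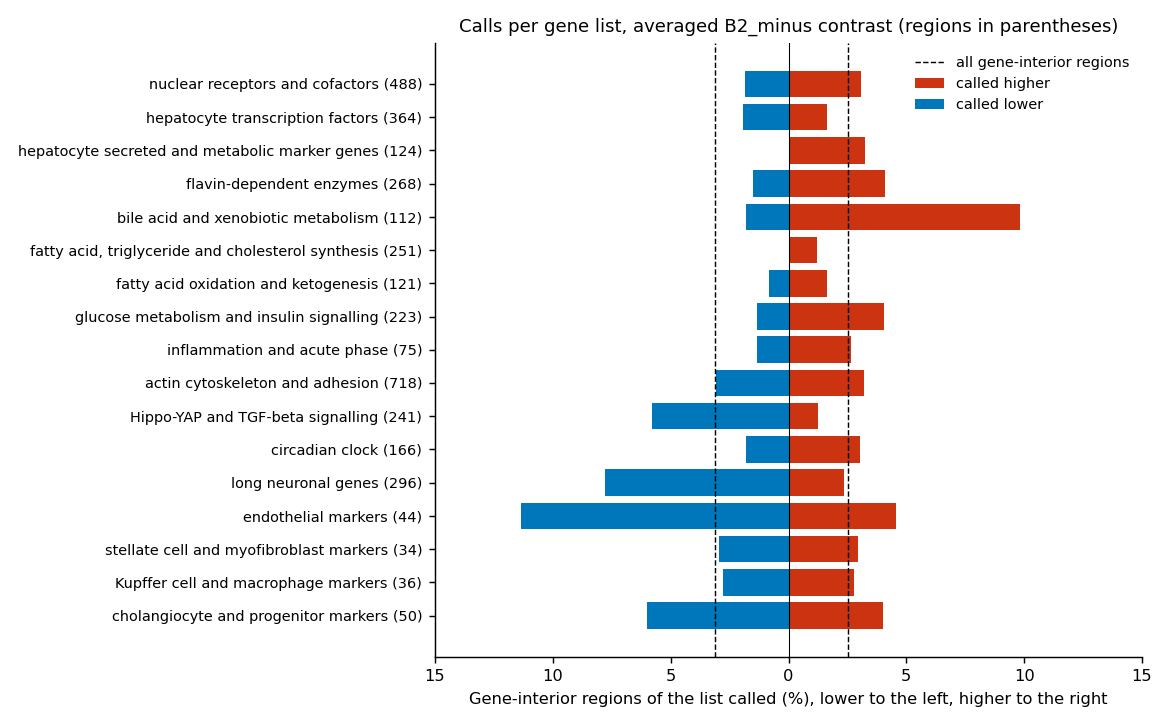
Members called higher or lower in B2_minus, averaged over arms, in each gene list, as a percent of the members in that list, higher to the right and lower to the left, with dashed lines at the shares over all members. Bile acid and xenobiotic genes have the longest bar to the right, 11 of 112, and endothelial markers the longest to the left, 5 of 44; no test of a list is shown.

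Markers of other liver cell types were small lists that differed in how often they were called. Endothelial markers held 44 members, of which 2 rose, both in Stab2, and 5 fell, in Flt1 (2), Eng, Stab2 and Flt4. That was 15.9% of them, the highest share of the lists examined, against 5.78% of all regions. Their members' mean level was 23.9 scaled tags in control and 23.6 under B2_minus with Ad_Cont, and 24.4 and 23.9 with Ad_Cre. At the Flt1 region chr5:147719812-147720398 the control libraries gave 18.8, 16.9 and 13.0 with Ad_Cont and 18.8, 7.95 and 13.1 with Ad_Cre. The B2_minus libraries gave 8.06, 7.46 and 6.31, and 7.3, 6.71 and 6.35, close to their lowest listed count (log2 fold change -1.04, adjusted p = 7.17e-05). Cholangiocyte and progenitor markers had 2 higher and 3 lower of 50 members, or 10.0%. Stellate cell markers had 1 higher and 1 lower of 34, and Kupffer cell markers 1 and 1 of 36, where the gain was the Lyn region described above and the fall was in Runx1. The part of other cell types in the B2_minus calls was not tested.

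Few members were called for Ad_Cre against Ad_Cont. With 3 libraries against 3, a low number of calls does not show that few members changed. In control cells 2 members rose and 1 fell (background 0.00591%, with 0.00197% higher and 0.00394% lower), and in B2_minus cells none passed (background 0.00197%, with 0.000984% in each direction). At an unadjusted p under 0.05 (edgeR) there were 3743 and 3572 of the 45928 members, and 7941 and 7406 of all 101575 regions. The single-arm B2_minus contrasts had 6138 members with Ad_Cont and 6180 with Ad_Cre at that level, and 13398 and 13562 of all 101575 regions. The interaction of B2_minus with Ad_Cre called none of the members (background 0%). At an unadjusted p under 0.05 (edgeR) it had 2445 members and 5221 of all 101575 regions. DESeq2 called no member in either Ad_Cre contrast or in the interaction. The control gain at Gabbr2, a subunit of the GABA-B receptor, was at chr4:46720869-46721161: 7.74, 7.96 and 8.64 scaled tags with Ad_Cont and 17.6, 17.9 and 24.5 with Ad_Cre (log2 fold change 1.31, SE 0.267, adjusted p = 0.0376). The Ad_Cont values lie at or just above the lowest listed count.

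Traf3, an adaptor of TNF-receptor signalling, had 24.3, 39.8 and 36.7 scaled tags with Ad_Cont and 58.4, 48.7 and 57.0 with Ad_Cre at chr12:111187132-111187404 in control cells, without overlap (0.69, adjusted p = 0.0356). In B2_minus cells the Traf3 region had 52.0 ± 3.87 and 54.7 ± 4.96 (n = 3). Pml, the nuclear body protein, fell in control cells at chr9:58247417-58247681, from 37.6, 51.8 and 55.1 to 35.3, 28.8 and 20.1 (-0.81, adjusted p = 0.0356). No member in these genes was called for Ad_Cre in B2_minus cells, where the log2 fold changes at the same regions were 0.45, 0.07 and -0.34.

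Ahr itself held 5 members, at 9.88 to 28.5 scaled tags, and none was called in any contrast. The most open, chr12:35506450-35506691, gave 34.3, 31.9 and 25.9 scaled tags in control and 30.5, 28.8 and 20.0 under B2_minus with Ad_Cont, and 27.6, 21.9 and 28.0 against 32.3, 34.5 and 26.3 with Ad_Cre. All 4 groups overlapped. At chr12:35515601-35515928 the control libraries gave 14.4 ± 0.453 scaled tags (SD, n = 3) with Ad_Cont and 14.3, 11.9 and 13.1 with Ad_Cre, and the B2_minus libraries gave 17.0, 17.1 and 21.0, and 15.7, 16.3 and 19.9. Every B2_minus value there lay above every control value, with an averaged log2 fold change of 0.37 that did not pass the test (SE 0.169, adjusted p = 0.191). The adjusted p for Ad_Cre was at least 0.788 at every Ahr member in control cells. As the deleted part of the gene is not given in the labels, these sites do not check whether it was removed.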

How the data were processed

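ATAC-seq peak lists of 12 mouse hepatocyte libraries were used. Groups came from the sample titles. Each deposited file listed 1 library's peaks with whole-number tag counts. The files have no header, and their whole, unequal totals led to reading them as unscaled counts. The submitters' processing notes name Bowtie2, HOMER and the builds hg38 and mm10, without versions or roles. No source used here gives total reads, read shifting, duplicate handling or peak thresholds. Peaks on chromosome Y or unplaced sequences (0.151%) were left out.

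Regions were merged and sorted by place as described above, with gene positions from RefSeq (GRCm38.p6). Depth is known only as listed tags. Counts in 101575 regions were fitted with edgeR 4.0.16 (TMM, glmQLFit with legacy=FALSE, which lets variance fall below Poisson and was adopted with earlier results known, and glmQLFTest) over all 4 groups, with Benjamini-Hochberg adjustment over all regions and a threshold of 0.05. The averaged contrast is the mean of both arms' effects. Library shares were compared by exact permutation. Counts were also simulated with a variance set below Poisson in every region, as the main fit allows, and with no lowest-count cutoff. Changes were planted only in regions with a mean count of at least 15. On these simulated counts the averaged contrast recovered 75% of regions changed 1.5-fold and 99% changed 2-fold, with 11 false calls in 101575. As the spread was set in advance, this does not measure false calls in the real libraries.

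The members and lists were chosen with earlier results of these data known. Regions named were the largest changes averaged over arms (with at least 15 scaled tags in every group), the smallest adjusted p in each arm, Ad_Cre calls, the strongest members, genes with the most members or calls, and up to 4 members per list by adjusted p. Pdgfb, Htra1, Itgb6 and the internal starts were chosen after their values were seen. Some genes that met these rules are not reported here. Alternatives were edgeR bounded at Poisson variance, limma 3.58.1 on log2(scaled tags + 1), DESeq2 1.42.0, other library sizes, region rules and count minimums, a replicate block, and leaving out each library. R 4.3.3 and Python 3.11.15 were used.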

Additional observations from a re-analysis of the deposited data

How the results depend on the processing

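Counts of called members are given as B2_minus with Ad_Cont, with Ad_Cre and averaged, which were 456, 517 and 2604. The edgeR fit bounded at Poisson variance gave 8, 7 and 442, DESeq2 gave 0, 0 and 20, summing a region's peaks gave 11, 9 and 655, and a peak in at least 3 libraries gave 7, 9 and 1784. Library sizes from listed tags gave 455, 1943 and 5165. Limma (472, 347, 2398), a mean count of at least 15 (450, 472, 2108), a distance over 5 kb (334, 386, 1892), region midpoints (455, 514, 2598) and, chosen after seeing the data, protein-coding gene ends only (473, 543, 2693) stayed within 1.5 times. For Ad_Cre in control, called at 3 members, the bounded fit and DESeq2 gave 0, library sizes from listed tags 10, and summed peaks and the 5 kb distance 1 each. For Ad_Cre in B2_minus, called at 0 (3572 at an unadjusted p under 0.05 with edgeR), summed peaks gave 2, a peak in 3 libraries 4 and a mean count of 15 gave 1. The interaction gave 3 with a peak in 3 libraries. The cause was not tested. Of 179 named averaged calls, 167 held with limma, 148 with library sizes from listed tags, 94 with a peak in 3 libraries, 73 with summed peaks, 68 with the bounded fit, and 13 of the 174 that DESeq2 gave an adjusted p. A called region in Hlf at position 90358036 of chromosome 11 changed sign, to a log2 fold change of 0.0196, with summed peaks.

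Leaving out 1 library at a time gave 116 to 249 (Ad_Cont), 147 to 252 (Ad_Cre), 1863 to 2230 (averaged), 0 to 1 (Ad_Cre in control), 0 to 2 (Ad_Cre in B2_minus) and 0 (interaction), from fewer samples each. The lowest counts came without B2_minus_Ad_Cont replicate 1 and without B2_minus_Ad_Cre replicate 3. The tag share difference for B2_minus ran from 1.59 to 2.30 points, and that for Ad_Cre, -1.09 points (p = 0.07, exact), from -1.46 to -0.743 (-1.46 without Cont_Ad_Cont replicate 2, p = 0.025, and -1.30 without B2_minus_Ad_Cre replicate 2, p = 0.01, exact). The peak share difference for B2_minus changed sign with peaks of at least 15 tags (0.210) and ran from -0.480 to -0.0184 with 1 library left out. That for Ad_Cre, -0.0892, became 0.310 at 5 kb, 0.445 with peaks of at least 15 tags, and ran from -0.328 to 0.133 (0.133 without Cont_Ad_Cont replicate 2, 0.0298 without B2_minus_Ad_Cre replicate 2). Replicate numbers did not pair the samples, as deviations of same-numbered libraries correlated at -0.016 to 0.012 over 18 pairs. A replicate block gave 461, 531 and 2601, and 176 of the 179 named calls held. In the same simulated data, with its spread set in advance, the single arms recovered 37% and 43% of the planted 1.5-fold changes.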

Other observations

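Among genes with called members in both directions, Ank3, the ankyrin that anchors membrane proteins to the spectrin skeleton, separated them along its length. Of its 35 members, 4 fell, between 69611774 and 69671347 of chromosome 10, and 2 rose, at 69948757 and 69954705. At chr10:69670966-69671347 the control libraries gave 29.8, 25.9 and 24.8 scaled tags with Ad_Cont and 29.8, 19.9 and 35.0 with Ad_Cre, against 11.7, 17.1 and 15.8 and 16.7, 18.2 and 12.7 in B2_minus, with no overlap (log2 fold change -0.86, SE 0.155, adjusted p = 7.11e-05, edgeR). At chr10:69948757-69949102 the averaged change was 0.72 (SE 0.132, adjusted p = 8.81e-05), from 25.5 ± 4.87 to 36.5 ± 3.09 with Ad_Cont (mean ± SD, n = 3) and from 17.6, 17.9 and 14.9 to 38.6, 25.9 and 30.8 with Ad_Cre. Ctif (3 higher, 4 lower of 36), Gse1 (2 and 4 of 67), Shroom3, an actin-binding regulator of cell shape (3 and 2 of 43), and Ppfibp2 (3 and 2 of 21) also held calls of both signs. In Shroom3 the gains included chr5:92746482-92746868, by 0.54 (adjusted p = 0.00182), and the falls chr5:92857187-92857804, by 0.61 (adjusted p = 0.0286).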
